A study of Mus musculus with 8 samples.

Results

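The proteasome is the barrel-shaped protease that degrades ubiquitin-tagged proteins. All genes named Psma, Psmb, Psmc, Psmd, Psme, Psmf or Psmg followed only by a number in the platform annotation were taken here, leaving out the immunoproteasome genes Psmb8, Psmb9 and Psmb10, and 42 of the 17097 genes measured met that rule. They held 8 genes of the α ring and 8 of the β ring of the 20S core, 16 of the 19S regulatory particle, 6 of assembly chaperones and 4 of activators and an inhibitor. Psmc6, Psmd10 and Psme4 were not analysed here. Expression was measured on 8 single-colour Affymetrix arrays of cells positive for α6-integrin and CD34, sorted after depletion of haematopoietic and endothelial cells from mouse skin squamous cell carcinomas (SCC) of mixed FVB/C57/Bl6 strain. The tumours arose in K14-HPV16 mice, spontaneously or after DMBA-TPA, in which a keratin promoter drives papillomavirus genes in basal keratinocytes. Tumour samples were grafted orthotopically into nude mice and passed on serially, so that all 8 samples come from grafted tumours in hosts that lack normal T cells and still have other immune cells. Well differentiated tumours (WD-SCC, 4 arrays) and later, poorly differentiated ones (labelled PD/S-SCC or PD-SCC, and called PD-SCC here, 4 arrays) came from the same 3 tumour lineages, with 2 arrays per stage in OT7 and 1 per stage in OT14 and in OT15. The labels give no age of the animals and name the arrays biological replicates but leave unsaid if both OT7 arrays per stage are from different tumours or animals. The p-values therefore reflect only the spread among these samples, part of which may be technical.

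The 20S core is built of outer α rings, whose ends gate the channel, and inner β rings, which carry the cutting sites. The 19S particle caps it: a base with a ring of ATPases unfolds the substrate, and a lid removes the ubiquitin chain. Chaperones guide the assembly of both parts, other caps such as PA28 open the gate without using ubiquitin, and in many cells the transcription factors NRF1 and NRF2 raise proteasome genes together. Standard catalytic β subunits can be replaced by immunoproteasome subunits under interferon.

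Values are log2 units, and array values are always given in the order OT7, OT7, OT14, OT15. The background of an array was taken as its brightest bacterial control among 15 such probe sets and ranged from 3.61 to 4.37, close to the array medians of 3.66 to 3.77. Cd34, a marker of the sort, read 7.0, 6.72, 6.87 and 3.58 on the WD-SCC arrays and 6.75, 7.40, 7.96 and 8.72 on the PD-SCC arrays, and on the OT15 WD-SCC array it was under that background although those cells were sorted as CD34 positive. Itga6, the other sort marker, was above background on all 8 arrays. Its lowest value, 5.32, was also on the OT15 WD-SCC array. It read 7.54 to 8.15 on the other WD-SCC arrays and 6.14 to 7.85 on the PD-SCC arrays. The basal keratin gene Krt14 was measured at 10.74 ± 0.38 in WD-SCC and 5.73 ± 1.45 in PD-SCC (mean ± SD, n = 4), and it fell in PD-SCC (adjusted p = 0.00764, limma). Actin probe sets for the 3′ and 5′ ends differed by -0.67 to -0.44 in WD-SCC and by -0.67 to -0.50 in PD-SCC.

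Of the 42 proteasome genes, 39 were above background on all 8 arrays. Psma8, an α subunit of the testis, read 3.38, 3.25, 3.03 and 3.20 on the WD-SCC arrays and 3.11, 2.93, 2.87 and 3.22 on the PD-SCC arrays. Psmb11, a β subunit of the thymus, read 3.19, 3.28, 3.18 and 3.28 on the WD-SCC arrays and 3.19, 3.16, 3.38 and 3.17 on the PD-SCC arrays. Both were at or under background on every array and neither gets a fold change. Psmg2 was above background on 2 of the 4 WD-SCC arrays and on all 4 PD-SCC arrays.

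The comparison of PD-SCC with WD-SCC within lineages asked how the sorted cells changed as the tumours lost differentiation. Of the 42 proteasome genes, 10 rose in PD-SCC at an adjusted p under 0.05 (limma, lineage as a block, two-sided) and none fell. Over all 17097 genes, 7.78% were called higher and 4.81% lower. At an unadjusted p under 0.05, 23 proteasome genes were higher and 0 lower, against 17.2% and 14.7% of all genes. The genes that rose were Psma3, Psma5 and Psma6 of the α ring, Psmb1, Psmb2, Psmb4 and Psmb5 of the β ring, Psmd7 of the lid, the chaperone gene Psmd5 and the activator gene Psme1, by 1.78-fold to 3.07-fold. The median difference of the 42 genes was 0.67, that of all genes was -0.06. In such bulk samples, a change in which cells make up a sample and a change of RNA per cell cannot be told apart.

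The background was higher among well expressed genes. Among the 3925 genes with a mean of at least 6 over the 8 arrays, 20.4% were called higher and 7.69% lower, and their median difference was 0.41. The 36 proteasome genes in that range held the same 10 calls, which is 27.8%, with a median of 0.67. All 4 PD-SCC arrays lay above all 4 WD-SCC arrays for 18 of the 42 genes, against 10.8% of all genes. In the range of at least 6 the count was 17 of 36, against 25.1% of 3925. The difference was positive in each of the 3 lineages for 22 of 42 genes, against 22.2% of all genes, and for 21 of 36, against 44.2%, in the brighter range. Only Psmd8, a lid gene, was lower in each lineage, a pattern that 29% of all genes showed.

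The number of genes called depended on few arrays and on the scaling. It was 9 without either OT14 array, where 4.52% of all genes were called higher, and 3 without either OT15 array, against 4.92%. These lineages have 1 array per stage, so leaving out 1 of their arrays gives the same fit as leaving out the lineage. The number called was 5 without the unnumbered OT7 WD-SCC array, against 5.6%. Leaving out its numbered partner, WD-SCC array 2 of OT7, gave 3, against 4.36%. Without the OT7 PD-SCC array numbered 1 it was 1, against 3.21%, and without that numbered 2 it was 2, against 3.24%. As shares of 42, 1, 2, 3, 5 and 9 genes are 2.38%, 4.76%, 7.14%, 11.9% and 21.4%. The number called was 0 without lineage OT7, where 0.304% of all genes were called higher. That fit has fewer residual degrees of freedom than the full fit. The median difference of the 42 genes was 0.58 there, against -0.03 over all genes. In that setting 13 of the 42 had an unadjusted p under 0.05 with a higher value (limma). The share of all genes at that unadjusted threshold was not counted there, so nothing is read from the 13. With the OT7 arrays of each stage averaged, the number called was 1, where 1.18% of all genes were called higher. It was the chaperone gene Psmd5 (adjusted p = 0.0489, limma). The median difference of the 42 genes was 0.67 in that setting, against -0.05 over all genes. Cyclic loess, which removes differences between arrays that run with the level of expression, left 3 genes, Psma6, Psmd5 and Psme1, against 4.67% of all genes. The median over the 42 genes was 0.30 there. Psmd8 was called lower (log2 difference -0.50, adjusted p = 0.0448, limma), as were 930 of all 17097 genes.

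**Figure D1:**
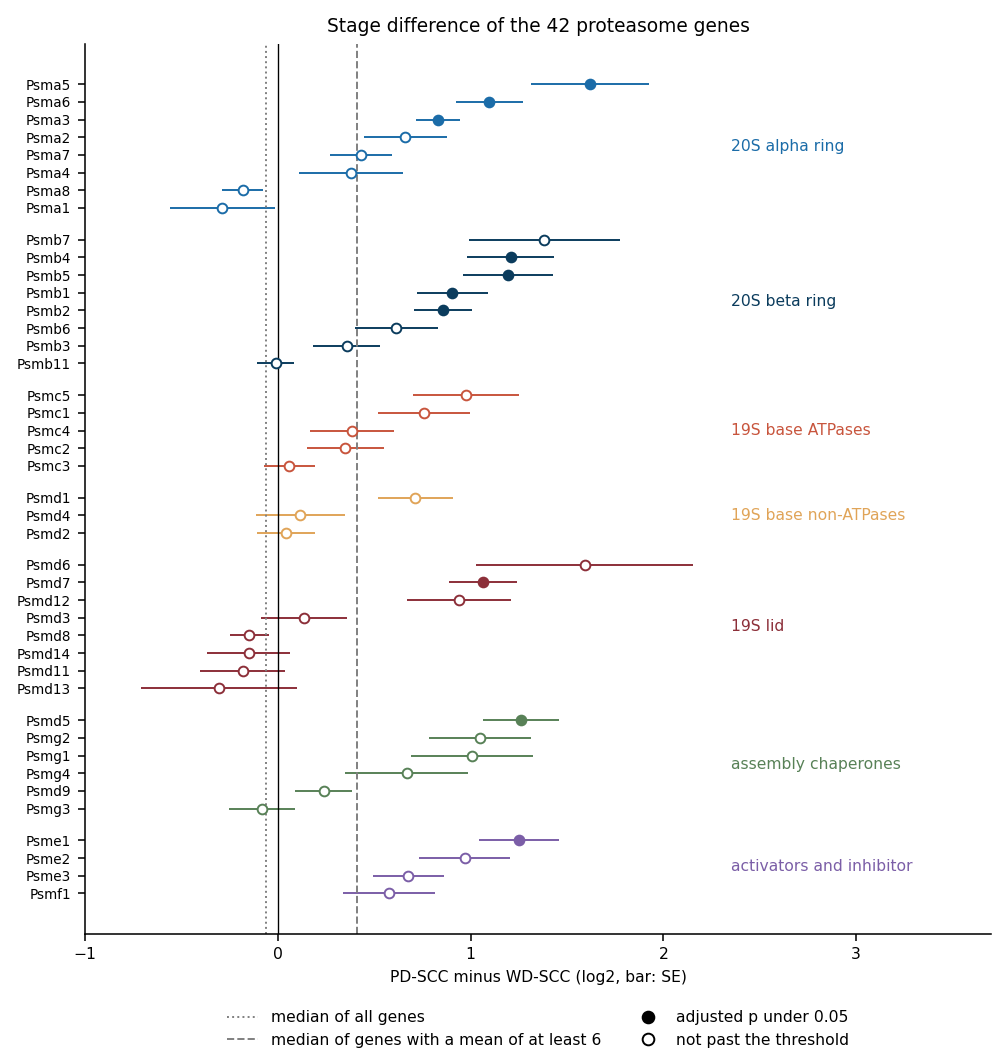
Difference between PD-SCC and WD-SCC (log2, horizontal axis, bar: SE of the limma fit with lineage as a block) for each of the 42 proteasome genes, grouped by their part of the complex; filled points are past an adjusted p of 0.05. The 10 filled points lie between 0.83 and 1.62, to the right of the median of all genes (-0.06) and of the median of the 3925 brighter genes (0.41), and no filled point lies below 0.

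In the α ring of the 20S core, 3 of 8 genes rose (37.5%) and none fell, with a median difference of 0.55. The share called higher was 7.78% of all genes and 20.4% of the 3925 brighter genes, whose median was 0.41. Psma5 had the largest rise of all 42 genes. It read 6.96, 7.29, 8.03 and 7.50 on the WD-SCC arrays and 9.41, 9.40, 8.71 and 8.73 on the PD-SCC arrays. Every PD-SCC array was above every WD-SCC array, with the OT7 pair lowest in WD-SCC and highest in PD-SCC (1.62 ± 0.30 SE, 3.07-fold, adjusted p = 0.0276, limma). Within lineages the difference was 2.28 for OT7, 0.68 for OT14 and 1.23 for OT15.

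Psma3 had the smallest error of the 10 genes called. It read 9.06, 8.82, 8.82 and 8.26 on the WD-SCC arrays and 9.64, 9.82, 9.53 and 9.31 on the PD-SCC arrays, and the groups did not overlap. The difference was 0.83 ± 0.11 SE, or 1.78-fold (adjusted p = 0.0116), with 0.79 for OT7, 0.71 for OT14 and 1.04 for OT15. Among the 10 genes called it was the one that stayed past the threshold whichever single array was left out, with an adjusted p of 0.0189 to 0.0471 (limma), but it missed it under cyclic loess (0.47, adjusted p = 0.0666). Psma6 read 7.40, 7.58, 8.08 and 7.31 on the WD-SCC arrays and 8.75, 8.90, 8.56 and 8.55 on the PD-SCC arrays, again without overlap, and the OT14 WD-SCC array was the highest of its stage. The gene rose by 1.10 ± 0.17 SE (2.14-fold, adjusted p = 0.0175).

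The other α genes did not pass. Psma4 read 6.52, 6.81, 7.31 and 7.97 on the WD-SCC arrays and 7.53, 7.73, 7.25 and 7.62 on the PD-SCC arrays. Its WD-SCC arrays spread over more than their distance to PD-SCC (0.38 ± 0.27 SE, adjusted p = 0.367). Psma1 pointed the other way, with 8.55, 8.32, 7.87 and 7.37 on the WD-SCC arrays and 7.36, 7.81, 7.98 and 7.80 on the PD-SCC arrays. It was lower in PD-SCC in OT7 only, by values of -0.84 for OT7, 0.11 for OT14 and 0.44 for OT15 (adjusted p = 0.494 over all lineages). Psma2 and Psma7 had differences of 0.66 and 0.43 (adjusted p = 0.100 and 0.132), and for Psma7 the stages did not overlap.

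The β ring had 4 of 8 genes higher (50%) and none lower, with a median difference of 0.88. Again 7.78% of all genes and 20.4% of the 3925 brighter genes were called higher. Psmb5 carries the chymotrypsin-like site, the main target of proteasome inhibitors. It read 7.94, 8.30, 9.04 and 7.91 on the WD-SCC arrays and 9.40, 9.51, 9.42 and 9.64 on the PD-SCC arrays. The PD-SCC arrays lay close together and above all WD-SCC arrays, of which OT14 was the highest (1.20 ± 0.23 SE, 2.29-fold, adjusted p = 0.0307). Psmb6, the gene of the caspase-like subunit, read 9.10, 9.19, 10.06 and 9.33 on the WD-SCC arrays and 10.05, 10.16, 9.86 and 10.09 on the PD-SCC arrays. Here the OT14 WD-SCC array lay within the PD-SCC range, and the difference of 0.62 ± 0.22 SE did not pass (adjusted p = 0.117). Psmb7, the gene of the trypsin-like subunit, read 8.07, 6.59, 8.20 and 5.93 on the WD-SCC arrays and 8.71, 8.78, 8.76 and 8.07 on the PD-SCC arrays. It had a wide spread in WD-SCC, where the OT14 array and the unnumbered OT7 array stood well above the others (1.38 ± 0.39 SE, adjusted p = 0.0743).

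The called genes of the β ring beside Psmb5 encode subunits without a cutting site. Psmb4 read 8.66, 8.68, 9.09 and 9.07 on the WD-SCC arrays and 10.25, 10.50, 9.88 and 9.70 on the PD-SCC arrays. The rise of 1.21 ± 0.23 SE was 2.31-fold (adjusted p = 0.0277), and OT7 had the highest PD-SCC and the lowest WD-SCC arrays. Psmb1 read 7.47, 7.71, 8.02 and 6.98 on the WD-SCC arrays and 8.69, 8.49, 8.32 and 8.31 on the PD-SCC arrays, a difference of 0.91 ± 0.19 SE (1.87-fold, adjusted p = 0.0341). Psmb2 read 8.77, 8.63, 9.08 and 8.65 on the WD-SCC arrays and 9.72, 9.95, 9.56 and 9.34 on the PD-SCC arrays, a difference of 0.86 ± 0.15 SE (1.81-fold, adjusted p = 0.0237). In both genes the stages did not overlap, and OT14 had the highest WD-SCC array and the smallest difference of the lineages. Psmb3, another subunit without a site, differed by 0.36 (adjusted p = 0.214). RefSeq names pseudogene copies of Psma5, Psmb5, Psmb6 and Psmb7, and how far the probes tell such copies from the genes was not tested.

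**Figure D2:**
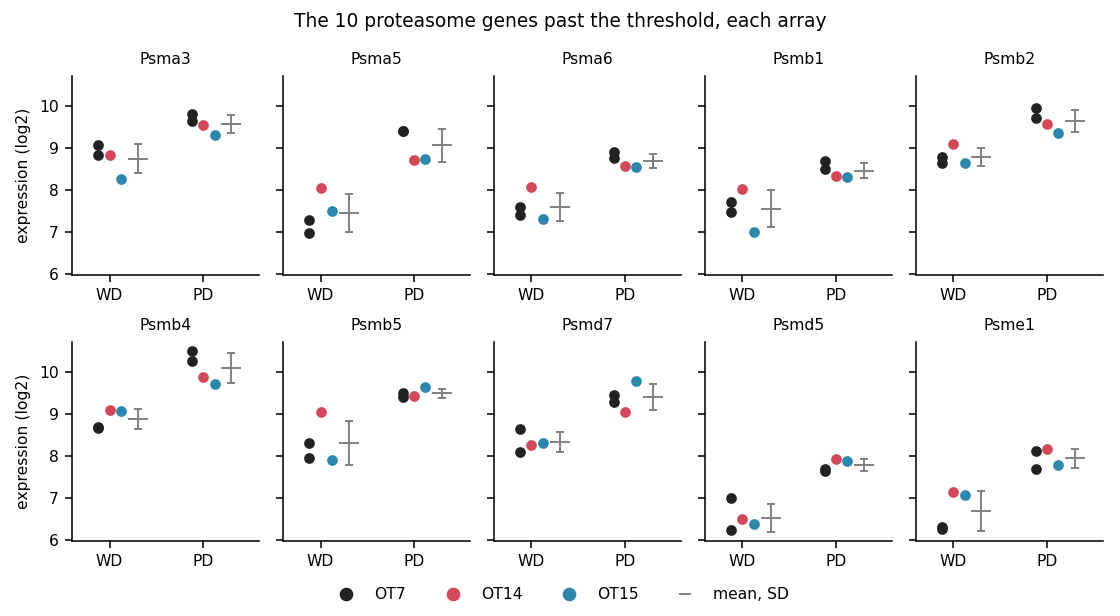
Expression (log2, vertical axis) of the 10 proteasome genes past the threshold on each array, with WD-SCC left and PD-SCC right in each panel; points are arrays coloured by lineage, and the grey mark with bar is the mean ± SD of the 4 arrays. In each panel all 4 PD-SCC points lie above all 4 WD-SCC points, and the OT14 WD-SCC point is the highest of its stage in Psma5, Psma6, Psmb1, Psmb2, Psmb4, Psmb5 and Psme1.

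Promoters were searched for motifs of factors known to act on proteasome genes, as a description of their sequence. RefSeq windows (GRCm38.p6), 300 bases long from 250 before to 50 after the start, were found for 34 of the 42 genes and for 27025 genes in all. The core of the antioxidant response element bound by NRF1 and NRF2, TGACNNNGC on either strand, was in 4 of 34 proteasome genes (11.8%) and in 14% of all genes. It was in 1 of the 7 called genes with a window, Psmb5. The NF-Y motif CCAAT on either strand was in 12 of 34 (35.3%) and in 41.1% of all genes. Neither motif was more common here than over all genes. The promoters with the antioxidant core, among them those of Psmb5 and Psmb6, are shown by their 250 bases before the start, with the match in capitals; it begins at base 204 of the window in Psmb5, 242 in Psmb6, 4 in Psmd12 and 220 in Psmd9, counted from 1 at the 5′ end. The promoter of the catalytic subunit gene Psmb7 was not analysed here. The first is chr14:54617996-54618245, minus strand, the second chr11:70525107-70525356, plus strand, the third chr11:107479278-107479527, plus strand, where the match is on the opposite strand, and the last chr5:123227940-123228189, plus strand.
Psmb5: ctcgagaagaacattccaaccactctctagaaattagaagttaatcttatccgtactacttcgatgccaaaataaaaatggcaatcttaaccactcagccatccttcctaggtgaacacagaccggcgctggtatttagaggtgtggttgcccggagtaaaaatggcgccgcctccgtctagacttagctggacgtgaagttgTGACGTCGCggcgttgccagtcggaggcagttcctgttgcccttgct
Psmb6: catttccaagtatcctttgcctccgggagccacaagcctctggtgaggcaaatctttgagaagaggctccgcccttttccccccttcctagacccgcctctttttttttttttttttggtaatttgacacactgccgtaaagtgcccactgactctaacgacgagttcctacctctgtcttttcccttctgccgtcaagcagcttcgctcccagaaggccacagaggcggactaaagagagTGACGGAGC
Psmd12: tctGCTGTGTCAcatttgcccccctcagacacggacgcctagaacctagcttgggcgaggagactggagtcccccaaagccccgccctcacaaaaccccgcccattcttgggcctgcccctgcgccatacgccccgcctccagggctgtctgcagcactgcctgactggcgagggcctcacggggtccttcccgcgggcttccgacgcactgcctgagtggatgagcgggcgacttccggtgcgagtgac
Psmd9: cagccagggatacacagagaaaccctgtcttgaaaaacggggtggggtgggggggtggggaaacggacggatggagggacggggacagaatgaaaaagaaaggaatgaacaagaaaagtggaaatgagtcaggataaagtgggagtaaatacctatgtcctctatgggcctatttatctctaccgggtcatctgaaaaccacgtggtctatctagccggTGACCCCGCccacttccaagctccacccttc
Of these 4 genes, Psmb5 rose between the stages, while Psmb6, Psmd12 and Psmd9 differed by 0.62, 0.94 and 0.24 without passing the threshold (adjusted p = 0.117, 0.0762 and 0.313).

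In the 19S regulatory particle 1 of 16 genes rose (6.25%), against 7 of 16 in the 20S core (43.8%). Over all genes 7.78% were called higher, and 20.4% of the 3925 genes with a mean of at least 6. The medians were 0.24 for the 19S particle and 0.75 for the 20S core, against 0.41 for those 3925 genes. The difference between both parts of the complex was not tested. The gene of the 19S particle that rose was Psmd7, whose product pairs with the deubiquitinase Psmd14 in the lid. Psmd7 read 8.65, 8.09, 8.26 and 8.31 on the WD-SCC arrays and 9.46, 9.28, 9.05 and 9.78 on the PD-SCC arrays, with no overlap (1.07 ± 0.18 SE, 2.09-fold, adjusted p = 0.0197). With the mean of its probe sets in place of the brightest, Psmd7 differed by 0.099 and was not called (adjusted p = 0.672). Its partner Psmd14, which cuts ubiquitin chains off the substrate, read 8.92, 8.61, 8.88 and 8.64 on the WD-SCC arrays and 8.03, 8.32, 9.15 and 8.95 on the PD-SCC arrays. There the OT7 PD-SCC arrays were the lowest of all and the groups overlapped (-0.15 ± 0.22 SE, adjusted p = 0.657).

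Psmd6, a lid subunit, had the largest difference that did not pass. It read 5.88, 6.19, 8.57 and 7.50 on the WD-SCC arrays and 9.01, 8.86, 8.51 and 8.13 on the PD-SCC arrays. The OT7 WD-SCC arrays stood far below the other 6 arrays, and the difference was 2.90 for OT7, -0.06 for OT14 and 0.63 for OT15 (1.59 ± 0.56 SE over all lineages, adjusted p = 0.119). A second probe set of Psmd6 differed by 0.89 over all lineages. The test that the stage effect differs between lineages gave Psmd6 the smallest p of the 42 genes, still short of the threshold (adjusted p = 0.184, limma). Psmd13, another lid gene, had the largest fall of the 42 genes in value, without passing. It read 8.0, 7.17, 7.40 and 6.98 on the WD-SCC arrays and 6.51, 6.71, 7.0 and 8.10 on the PD-SCC arrays, lower in PD-SCC in OT7 and OT14 and higher in OT15 (-0.31 ± 0.40 SE, adjusted p = 0.628).

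Psmd12, a further lid gene, did not overlap between stages and differed by 0.94 (adjusted p = 0.0762). Psmd3, Psmd8 and Psmd11 of the lid differed by 0.14, -0.15 and -0.18 (adjusted p = 0.698, 0.363 and 0.599). In the base, none of 5 ATPase genes passed (limma), with 2 higher at an unadjusted p under 0.05, against 17.2% of all genes. Psmc5 and Psmc1 had the largest differences, 0.98 and 0.76 (adjusted p = 0.0717 and 0.0958), and neither overlapped between stages. Psmc4 read 9.63, 9.52, 9.67 and 9.37 on the WD-SCC arrays and 10.38, 10.38, 9.28 and 9.69 on the PD-SCC arrays. The OT7 PD-SCC arrays were high and the OT14 PD-SCC array was the lowest of all 8, giving 0.80 for OT7, -0.39 for OT14 and 0.33 for OT15 (adjusted p = 0.275 over all lineages). Psmc2 differed by 0.35 and Psmc3 by 0.06 (adjusted p = 0.281 and 0.775).

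Psmd4, a ubiquitin receptor of the base, read 9.20, 8.79, 9.44 and 9.32 on the WD-SCC arrays and 9.70, 9.42, 8.94 and 9.15 on the PD-SCC arrays. The groups overlapped in part and the difference of 0.12 ± 0.23 SE was within their spread (adjusted p = 0.751). It changed sign under cyclic loess (-0.25) and with a common 75th percentile (-0.03). The large base scaffolds went apart in size: Psmd1 differed by 0.71 without overlap (adjusted p = 0.0682), and Psmd2 by 0.04 (adjusted p = 0.852).

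Among 6 assembly chaperone genes Psmd5 rose (16.7%) and none fell. The share called higher was 7.78% of all genes and 20.4% of the 3925 genes with a mean of at least 6. Psmd5 encodes a chaperone of the base. It read 6.23, 7.0, 6.50 and 6.36 on the WD-SCC arrays and 7.69, 7.64, 7.93 and 7.88 on the PD-SCC arrays. All PD-SCC arrays were above all WD-SCC arrays and the lineages differed little, with 1.05 for OT7, 1.42 for OT14 and 1.52 for OT15 (1.26 ± 0.20 SE, 2.40-fold, adjusted p = 0.0172). Of the chaperones that build the α ring, Psmg1, Psmg2 and Psmg4 differed by 1.01, 1.05 and 0.67 (adjusted p = 0.0913, 0.0577 and 0.210), and Psmg3 by -0.08 (adjusted p = 0.767). The base chaperone gene Psmd9 differed by 0.24 (adjusted p = 0.313). Pomp, which is not among the 42 genes and encodes the factor that matures the β ring, read 9.08, 9.47, 9.75 and 9.20 on the WD-SCC arrays and 9.91, 10.10, 10.25 and 9.78 on the PD-SCC arrays, without overlap. It rose by 0.63 ± 0.13 SE (1.55-fold, adjusted p = 0.0322) but by 0.27 under cyclic loess, short of the threshold (adjusted p = 0.205), and it was not called without the lineage block (adjusted p = 0.0533).

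The genes of activators and of the inhibitor were positive in every lineage, and 1 of 4 passed (25%). Of all genes 22.2% were positive in each lineage and 7.78% were called higher. Among the 3925 genes with a mean of at least 6 the shares were 44.2% and 20.4%, so the 25% was near that background. Psme1 and Psme2 encode the α and β subunits of the PA28 cap, which interferon induces, and RefSeq places 1 protein-coding gene between them. Psme1 read 6.29, 6.24, 7.13 and 7.08 on the WD-SCC arrays and 7.68, 8.13, 8.15 and 7.79 on the PD-SCC arrays. The stages did not overlap and the rise was 1.25 ± 0.21 SE, or 2.38-fold (adjusted p = 0.0190). Psme2 read 6.77, 7.42, 6.90 and 7.29 on the WD-SCC arrays and 7.74, 8.55, 7.91 and 8.05 on the PD-SCC arrays. It did not overlap either, and its difference of 0.97 ± 0.24 SE just missed the threshold (adjusted p = 0.0524); it was called without the lineage block (adjusted p = 0.0303). Psme3, the gene of the nuclear PA28γ cap, read 8.20, 8.86, 8.81 and 8.38 on the WD-SCC arrays and 9.12, 9.17, 9.25 and 9.43 on the PD-SCC arrays, without overlap (0.68 ± 0.18 SE, adjusted p = 0.0674; adjusted p = 0.0402 without the block). Psmf1, which encodes the inhibitor PI31, read 5.77, 6.81, 6.42 and 6.50 on the WD-SCC arrays and 6.73, 6.91, 7.23 and 6.95 on the PD-SCC arrays (0.58 ± 0.24 SE, adjusted p = 0.164), and its unnumbered OT7 WD-SCC array was the lowest of the 8.

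The immunoproteasome genes were set beside their standard counterparts. Psmb8 replaces Psmb5. It read 5.66, 7.34, 6.99 and 7.36 on the WD-SCC arrays and 8.27, 9.33, 8.85 and 6.91 on the PD-SCC arrays. It was higher in PD-SCC in OT7 and OT14 and lower in OT15, and arrays of the same lineage and stage differed by over 1 unit (1.5 ± 0.63 SE, adjusted p = 0.169). Psmb9 replaces Psmb6 and read 7.18, 7.41, 7.16 and 7.63 on the WD-SCC arrays and 6.58, 7.84, 7.52 and 6.95 on the PD-SCC arrays, with overlapping groups (-0.12 ± 0.32 SE, adjusted p = 0.811). Psmb10 replaces Psmb7 and read 5.14, 6.36, 6.88 and 6.43 on the WD-SCC arrays and 6.47, 7.92, 7.55 and 7.95 on the PD-SCC arrays (1.27 ± 0.43 SE, adjusted p = 0.108). None of the 3 passed (limma), with Psmb10 higher at an unadjusted p under 0.05, against 17.2% of all genes.

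**Figure D3:**
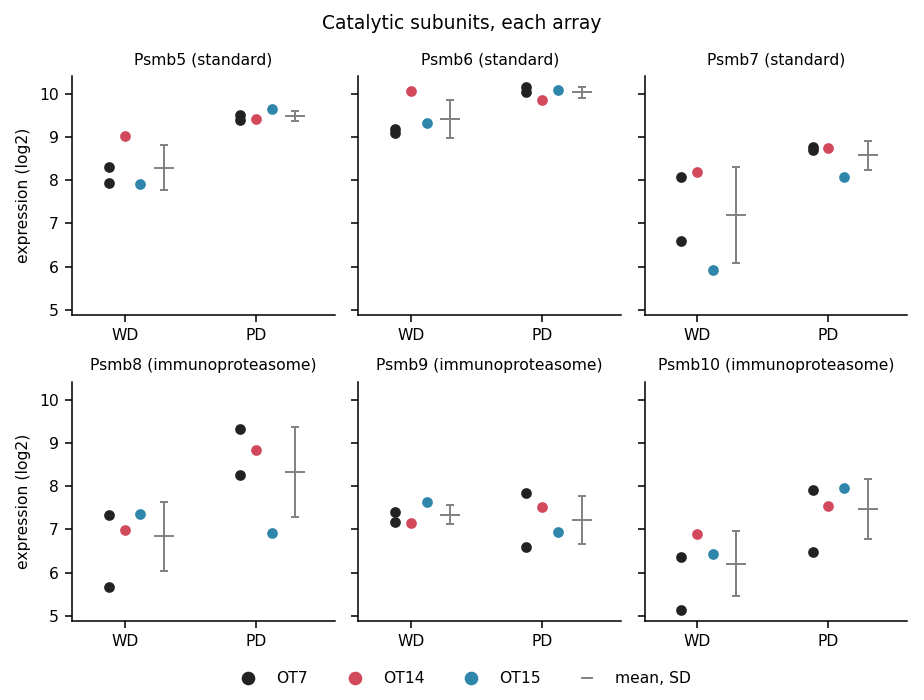
Expression (log2, vertical axis) of the standard catalytic subunit genes (upper row) and of the immunoproteasome genes that replace them (lower row) on each array, WD-SCC left and PD-SCC right; points are arrays coloured by lineage, the grey mark with bar is the mean ± SD of the 4 arrays. Psmb5 is the only panel without overlap between stages, and the PD-SCC arrays of Psmb8 span 6.91 to 9.33.

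By lineage, the differences in value were larger in OT7 and OT15 than in OT14. The median difference of the 42 genes came to 0.74 for OT7, 0.20 for OT14 and 0.68 for OT15, where the medians of all genes were -0.08, 0.01 and -0.07. The number of genes with a positive difference was 35, 25 and 35, against 7272, 8762 and 7314 of all 17097 genes. Among genes with a mean of at least 6, the medians were 0.79, 0.26 and 0.73 for the 36 proteasome genes. Those of all 3925 genes in that range were 0.44, 0.32 and 0.40, so in OT14 the proteasome genes were not above them. In that range 31, 23 and 32 of the 36 were positive, against 2620, 2511 and 2487 of the 3925. In a fit with a coefficient for each lineage and stage, whose spread comes from the OT7 arrays alone, 10 of the 42 genes were higher in OT7 at an adjusted p under 0.05, against 6.21% of all genes. None passed in OT14 or OT15, where 0.181% and 0.562% of all genes were called higher (limma). At an unadjusted p under 0.05 in that fit (limma), 22 proteasome genes were higher in OT7, 4 in OT14 and 16 in OT15. The shares of all genes were 16.7%, 8.15% and 9.65%, so the count in OT14 was near its background. At that threshold 4 proteasome genes were lower in OT7 and none in OT14 or OT15. The share of all genes that were lower there was not counted.

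The OT14 WD-SCC array was the highest of the 4 WD-SCC arrays for 20 of the 42 genes, and the OT15 WD-SCC array for 1. The same counts were not made over all genes. Whether the OT14 array stood high for proteasome genes in particular was therefore not tested. The median over the 42 genes was 8.19 on the OT14 WD-SCC array, 7.68 to 7.97 on the other WD-SCC arrays and 8.61 to 8.80 on the PD-SCC arrays. When the stage effects of the lineages were tested against each other, the fit called none of the 42 genes (limma), where it called 0% of all genes, and 9 had an unadjusted p under 0.05, against 11.9% of all genes. The 5 with the smallest p were Psmd6, Psma5, Psmc4, Psmb6 and Psma4, whose adjusted p were 0.184, 0.274, 0.298, 0.307 and 0.333. In these 5 the OT7 difference was the largest and the OT14 difference was from -0.39 to 0.68. The test of a difference in level between lineages called none of the 42 genes either (limma), with 2 at an unadjusted p under 0.05, against 7.32% of all genes.

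**Figure D4:**
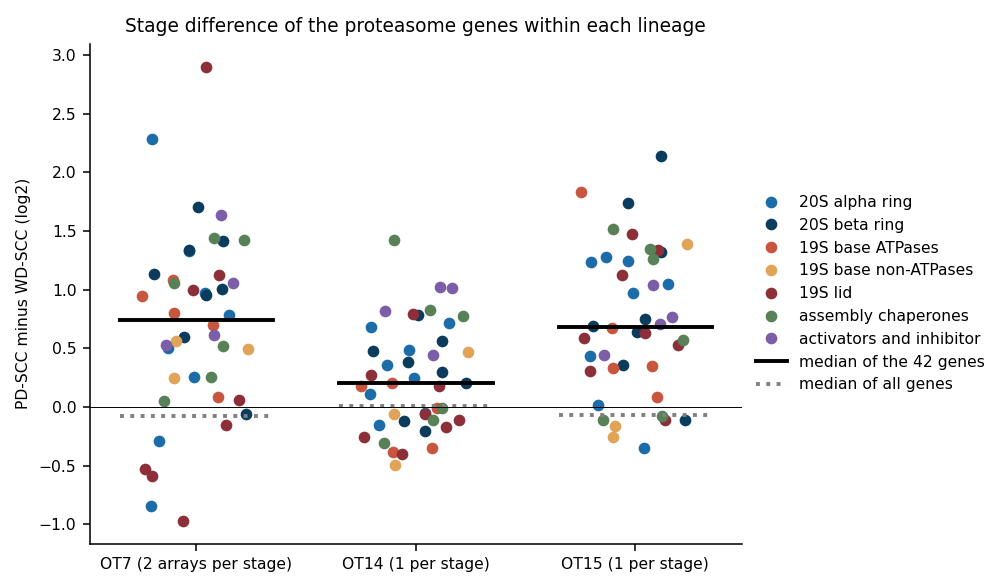
Difference between PD-SCC and WD-SCC (log2, vertical axis) of each of the 42 proteasome genes in lineages OT7, OT14 and OT15; points are genes coloured by their part of the complex, black lines the median of the 42 genes and dotted grey lines the median of all genes. The black line is at 0.74, 0.20 and 0.68, and the dotted line at -0.08, 0.01 and -0.07. The medians of the 3925 brighter genes, 0.44, 0.32 and 0.40, are not drawn.

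The 42 genes had 66 probe sets of their own, and 15 genes had several. In a fit across 45037 probe sets, 10 of these 66 were called higher and none lower (limma), against 5.49% and 2.84% of all probe sets. Of the genes called, Psmd7 alone had more than 1 probe set. In 6 genes the probe sets differed in sign. Psmd7 was the called gene among them: its brightest probe set gave 1.07, and 2 dimmer ones, at WD-SCC means of 5.01 and 4.16, gave -0.45 and -0.32. In 5 genes, all probe sets were above background on all 8 arrays and had the same sign; Psme3 was among them, with 0.68 and 0.82.

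Other genes of the pathway are given by list. Beside them stand the 7.78% of all genes called higher and the 20.4% of the 3925 genes with a mean of at least 6, whose median was 0.41. Of 9 measured genes of other proteasome-bound and maturation factors, 2 rose (22.2%), near that 20.4%, and none fell (median difference 0.50). These were Pomp and Uchl5, a deubiquitinase of the 19S particle, which read 5.21, 5.55, 5.93 and 4.58 on the WD-SCC arrays and 7.24, 7.10, 7.33 and 6.76 on the PD-SCC arrays and rose by 1.79 ± 0.16 SE (3.46-fold, adjusted p = 0.00450). The groups of Uchl5 did not overlap and it also passed under cyclic loess (1.5, adjusted p = 0.00627) and, at 0.84, with the mean of its probe sets (adjusted p = 0.00929). Of 11 genes of ubiquitin, shuttle factors and p97, 2 rose (18.2%), also near the 20.4%, and none fell (median difference -0.01). They were the shuttle genes Ubqln4 (1.35 ± 0.24 SE, adjusted p = 0.0234) and Rad23b (0.75 ± 0.18 SE, adjusted p = 0.0499), of which Ubqln4 was not called without the lineage block (adjusted p = 0.0839) and Rad23b missed the threshold under cyclic loess (0.62, adjusted p = 0.0724).

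Of 7 genes around NRF1 and NRF2, none rose and 1 fell (14.3%), with a median of -0.20. The share that fell was 4.81% of all genes and 7.69% of the 3925 genes with a mean of at least 6. Nfe2l1, which encodes NRF1, read 7.09, 7.72, 7.78 and 7.55 on the WD-SCC arrays and 7.72, 8.23, 7.63 and 7.45 on the PD-SCC arrays, a difference within the spread of the arrays (0.22 ± 0.24 SE, adjusted p = 0.543) that turned to -0.15 under cyclic loess. Nfe2l2, which encodes NRF2, read 7.47, 5.63, 5.16 and 4.78 on the WD-SCC arrays and 5.41, 5.23, 6.55 and 6.71 on the PD-SCC arrays. It was lower in PD-SCC in OT7 and higher in the other lineages (-1.23 for OT7, 1.39 for OT14 and 1.93 for OT15, adjusted p = 0.854 over all), and was -0.04 under cyclic loess. The gene that fell was Maff, a small Maf protein that pairs with such factors, with a difference of -1.37 ± 0.23 SE (adjusted p = 0.0195). NRF1 and NRF2 are controlled largely after transcription, which these arrays do not measure.

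The CCT chaperonin, another large complex of the cytosol, was set beside the proteasome. Of its 8 genes, whose products fold actin and tubulin, 5 rose (62.5%) and none fell (median difference 0.83). All 8 were positive in each lineage. Of all genes 7.78% were called higher and 22.2% were positive in each lineage. Those shares were 20.4% and 44.2% among the 3925 genes with a mean of at least 6. Tcp1 rose by 1.09 (adjusted p = 0.0243) and Cct8 by 0.79 (adjusted p = 0.0276), and both missed the threshold under cyclic loess (0.73 and 0.41, adjusted p = 0.0736 and 0.157). With probe sets ending in _x_at, _s_at or _a_at left out, Cct8 was read from another probe set and differed by -0.19. Of 24 measured cell cycle genes, 18 rose (75%) and none fell (median difference 1.89), beside the same 7.78% and 20.4%. The spindle gene Tpx2 rose by 3.14 ± 0.21 SE (adjusted p = 0.00204, limma) and Birc5 by 2.19 (adjusted p = 0.00190). Both also passed under cyclic loess. The part of the cell cycle in the proteasome differences was not tested.

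Markers of cell types were compared as well, where 4.81% of all genes and 7.69% of the 3925 brighter genes fell. The share that fell was 16.7% of the haematopoietic, 25% of the endothelial and pericyte and 54.5% of the keratinocyte markers. It was 8.33%, or 1 gene each, for fibroblast markers and for those of muscle, fat, Schwann cells or melanocytes, near the 7.69%. Of 18 measured haematopoietic markers, 3 fell and none rose, and their summed level (linear scale) was 653 to 1364 on the WD-SCC arrays and 259 to 355 on the PD-SCC arrays. Cd68, a macrophage gene, and Cd52 were among those that fell (-2.79 and -1.71). Ptprc, which defines blood cells, was at or under background on all 8 arrays. Endothelial and pericyte genes fell in 3 of 12 cases and rose in none, with sums of 327 to 1905 and 213 to 567. Tie1 and Cldn5 fell (-3.81 and -1.19). Cdh5 of that list still read 8.39 on the OT15 PD-SCC array. Of 12 fibroblast markers, 6 had a positive and 6 a negative difference; Thy1 fell (-3.92) and none rose, while Col6a1 and Pdgfra differed by 3.08 and 0.66 without overlap (adjusted p = 0.0776 and 0.0813), with sums of 536 to 8981 and 2608 to 4598, and among 12 genes typical of muscle, fat, Schwann cells or melanocytes Ckm fell (-0.57) and none rose, with sums of 168 to 204 and 146 to 162. Among 11 keratinocyte markers 6 fell and none rose, Krt5 (-7.10) and Dsp (-7.49) among them, with sums of 5765 to 10064 and 1074 to 2819. The part of these cells in the proteasome differences was not tested.

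The share of proteasome genes called and that of all genes depended on the setting. With only the 3925 brighter genes fitted, 15 of 36 proteasome genes were called higher (41.7%), against 26.1% of the genes fitted, and the 10 calls of the full fit were among the 15. A filter on the brighter stage gave 16 of 37, against 28.4%, but it admits genes through the stage where they are high, as it did for the called Psmg1, so nothing is read from that count. Under cyclic loess the shares were 7.14% and 4.67%. Without OT7 no proteasome gene was called, against 0.304% of all genes, in a fit with fewer residual degrees of freedom. The median difference of the 42 proteasome genes was 0.58 there, against -0.03 over all genes.

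**Figure D5:**
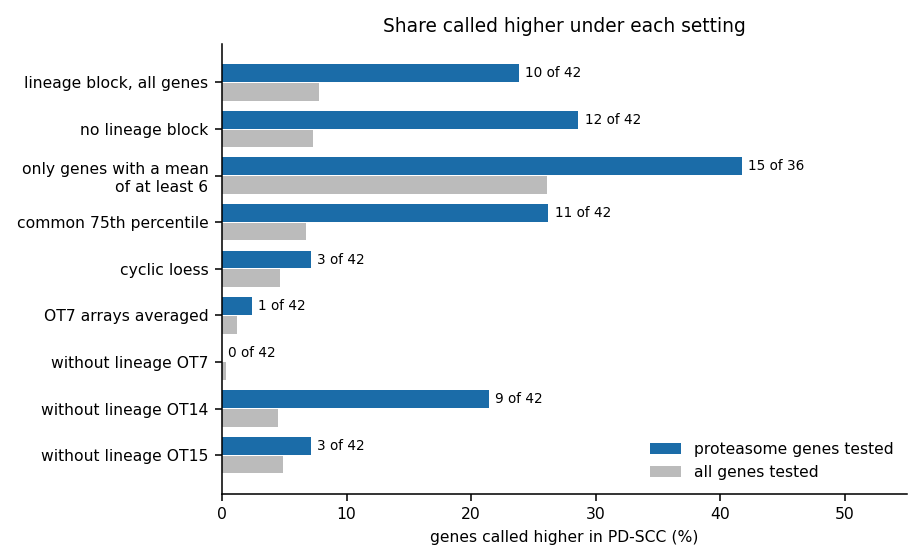
Share of genes called higher in PD-SCC (%, horizontal axis) among the proteasome genes tested (blue) and among all genes tested (grey) in the limma fit with lineage as a block and in 8 other settings; the numbers beside the blue bars are genes called of genes tested. The blue bar is 23.8% against 7.78% in the fit on all genes and 41.7% against 26.1% among the brighter genes. It shrinks to 7.14% under cyclic loess, against 4.67%, and to 0 without lineage OT7, against 0.304%.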

How the data were processed

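RNA from 8 sorted cell samples was hybridised to single-colour Affymetrix arrays. The values are log2 expression per probe set as deposited by the authors; affy and RMA are named in the submitters' processing notes, with no version or setting given in the sources used here. RMA sets arrays to a like distribution, so a shift of all genes together cannot be seen. No counts exist, and the number of arrays limits the precision. The platform annotation gave 28898 of the 45141 probe sets a single gene symbol, 551 more than 1 and 15588 no symbol, beside 104 controls. Each of 17097 genes was read from its brightest probe set (mean of 8 arrays); 99.1% matched a RefSeq gene.

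Stages were compared with limma 3.58.1 (R 4.3.3; lmFit, eBayes) on all genes with lineage as a block, which leaves 4 residual degrees of freedom, and Benjamini-Hochberg adjustment over all genes at 0.05. A fit with a coefficient per lineage and stage has 2. The labels place both stages of a lineage in the same tumour line, which is the pairing; deviations of its stages from the group means correlated at -0.04, 0.02 and 0.06 in OT7, OT14 and OT15. The highest correlation between any arrays was 0.978, so no array was a copy of another. On data simulated for this fit with 200 of 17097 genes changed, 44% were recovered at a log2 change of 1 and 73% at 2, with 6.4% false calls; with 2154 genes changed, the number called in these data, the shares were 68.6% and 90.9%, with 4.82% false. Figures used Python 3.11.15 and matplotlib 3.10.9.

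Proteasome genes and gene lists were chosen with earlier results of these data known. Array values are printed for genes past the threshold, the 5 with the smallest p for a difference between lineages, the 2 largest rises and falls, the catalytic subunits, Psmd14, Psmd4, activators and inhibitor, Psma8 and Psmb11; of other genes, for Psmb8, Psmb9, Psmb10, Nfe2l1, Nfe2l2 and Pomp, and up to 2 per list past the threshold are named. Cd34, Krt14, Itga6, Ptprc, Cdh5, Col6a1 and Pdgfra were named after their values were seen. Alternatives were the block, averaged OT7 arrays, filters on dim genes, probe set choice, scaling, the prior, and leaving out arrays or lineages. Adrm1 was not analysed here.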

Additional observations from a re-analysis of the deposited data

Results flagged for a closer look

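In groups of 4 arrays, chance alone sets an end value this far apart in about 1 in 20 groups, and no explanation was tested for either value here. Psmb7, the gene of the trypsin-like subunit, had an OT15 PD-SCC array at 8.07, well below the other PD-SCC arrays of that gene. Psmb11, the thymus subunit, had an OT14 PD-SCC array at 3.38, above the other PD-SCC arrays and still under the background of bacterial controls.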

How the results depend on the processing

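The count of 10 proteasome genes called higher was 12 with no replicate block (all 10 kept, with Psme2 and Psme3). It was 6 without probe sets ending in _x_at, _s_at or _a_at (34 genes tested) and 3 under cyclic loess. It was 1 with OT7 arrays averaged, 0 without OT7, 3 without OT15, and 1 to 9 without single arrays. A filter on the brighter stage gave 16, where 28.4% of the genes fitted were called higher. That filter admits genes through the stage where they are high, so nothing is read from its count. Of all genes, 7.31% were called higher with no replicate block and 5.79% without the probe sets named. The count called lower was 1 under cyclic loess, where 930 of all genes were called lower and the median difference of the proteasome genes was 0.30. Over all genes, 2154 were called, against 401 with OT7 averaged, 1388 with a mean of at least 6 (a filter added after seeing the data, which tests fewer genes), 246, 1240 and 1282 without OT7, OT14 and OT15, and 886 to 1689 without single arrays. Calls split into 1331 higher and 823 lower, into 799 and 930 under cyclic loess and into 1150 and 1205 with a common 75th percentile, where the median of all genes was -0.21. Signs turned without OT7 for Psmc4 (-0.030), Psma4 (-0.20), Psmd13 (0.36), Psma1 (0.27), Psmd14 (0.29), Psmd4 (-0.33), Psmb11 (0.046) and Nfe2l1 (-0.13). They turned with OT7 averaged for Psmd4 (-0.032) and Psmb11 (0.0091), under cyclic loess for Psmd4 (-0.25), Psmb11 (0.056), Nfe2l1 (-0.15) and Nfe2l2 (-0.044), and with the 75th percentile for Psmd4 (-0.033). Without OT15 they turned for Psmb11 (0.025), Psmb9 (0.064) and Nfe2l2 (-0.36), without OT14 for Nfe2l2 (-0.18), and without the probe sets named above for Cct8 (-0.19). Without single arrays Psmd4 ranged from -0.056 to 0.32, Psmb11 from -0.079 to 0.025, Psmb9 from -0.38 to 0.12 and Nfe2l2 from -0.36 to 0.87. The causes were not tested. None of the 10 called genes changed sign under any of these settings. For each of them every PD-SCC array lay above every WD-SCC array. Leaving out arrays or lineages, averaging OT7, or changing the block or the prior could therefore not turn a sign. Dim genes near background, such as Psma8 and Psmb11, have no usable order.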
